A study of Mus musculus with 12 samples.

Results

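Neurotrophic and growth factor genes were examined in contused cord from wild-type mice, from Il1a KO mice (no interleukin-1 alpha) and from Il1b KO mice (no interleukin-1 beta). The set named 8 genes by symbol, the ligands Bdnf, Ntf3, Gdnf, Vegfa, Fgf2 and Igf1 and the receptors Ntrk2 and Ngfr. For 7 of them the platform's annotation listed a probe set, 1 each, among 19938 genes tested, and Ntf3 was not analysed here. All mice, wild type included, were of the C57BL/6 background, aged 8 to 12 weeks, and received a contusion of 50 kdyn to the cord. A segment of 6 mm around the lesion was taken 24 h later, and total RNA was hybridised to whole-transcript arrays. Each group had 4 arrays, called biological replicates in the labels, so there were 12 in all. No uninjured cord was analysed here, so each level is that of the lesioned tissue and not a response to the injury. The labels name no further allele or agent, and do not describe how either knockout was made.

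Neurotrophins such as BDNF and NT-3 signal survival and growth to neurons through Trk receptor tyrosine kinases, and also bind the p75 receptor encoded by Ngfr, a member of the tumour necrosis factor receptor family that can signal cell death. GDNF acts on motor neurons through a co-receptor and the kinase Ret, while VEGF-A, FGF-2 and IGF-1 act on endothelium, glia, precursor cells and neurons through kinase receptors of their own. After a cord lesion these factors come from resident glia, endothelium, neurons and entering leukocytes, and interleukin-1 is known as a signal to several of those cells. The comparison therefore asked whether the transcripts of these trophic genes differ in the lesioned cord when either interleukin-1 agonist is absent.

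None of the 7 measured genes passed the test in any comparison. With limma, a linear model with moderated variances fitted to all 12 arrays, 0 of 7 genes had an adjusted p below 0.05 in the Il1a KO, where 0.171% of all genes did. The count was 0 of 7 in the Il1b KO, against 0.813% of all genes, and 0 of 7 between the knockouts, against 0.652%. At an unadjusted p below 0.05 there were 2 of 7 genes in the Il1a KO (Fgf2 and Ngfr, both lower), when 4.54% of all genes were higher and 3.77% lower at that p. There were 2 of 7 in the Il1b KO (Vegfa higher, Ngfr lower), when 8.42% of all genes were higher and 4.58% lower. Between the knockouts there were 2 of 7 (Vegfa and Fgf2, both lower in the Il1a KO), when 2.99% were higher and 4.80% lower. A positive log2 difference was found for 2 of 7 in the Il1a KO, 3 of 7 in the Il1b KO and 3 of 7 between the knockouts, against 50.2%, 52.0% and 47.3% of all genes. Vegfa in the Il1b KO came nearest to a call, at 1.15-fold the wild-type level with an adjusted p of 0.0871. It passed under 3 other settings of the analysis, under each of which more of all genes passed than in the main fit. Under the rest it did not pass, and the limma adjusted p reached 0.264. The widest 95% intervals of the fold were those of Igf1, from 0.777 to 1.06 times wild type in the Il1a KO and from 0.894 to 1.22 times in the Il1b KO.

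The labels and the tissue were checked first. Il1b was 0.375 times the wild-type level in the Il1b KO (log2 difference -1.42, limma adjusted p = 2.64e-06), and Il1a was 0.536 times wild type in the Il1a KO (-0.90, limma adjusted p = 0.00372). The Il1b KO arrays likewise had less Il1a, 0.586 times the wild-type level (-0.77, limma adjusted p = 0.0039), so its level does not tell the knockouts apart, while that of Il1b does. By signal Il1a stood at percentile 9.4 of all genes and Il1b at 37.7, so the Il1a folds are those of a dim gene. All 7 markers of neurons, all 6 of astrocytes and the 5 of mature oligodendrocytes that were measured lay at or above percentile 68.3 of all genes by signal. The arrays had medians between 7.67 and 7.72 on the log2 scale. Il1a KO replicate 1 stood apart in sex-linked genes, with the female-specific Xist at 6.47 against 11.9 to 12.2 elsewhere and the Y-linked Eif2s3y at 9.15 against 3.65 to 3.94. Without this array the members with an unadjusted p below 0.05 numbered 1 of 7 in the Il1a KO (Ngfr) and 1 of 7 between the knockouts (Vegfa), and Fgf2 left both counts. Values of different genes come from different probes, so levels are compared between groups and not between genes.

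**Figure D1:**
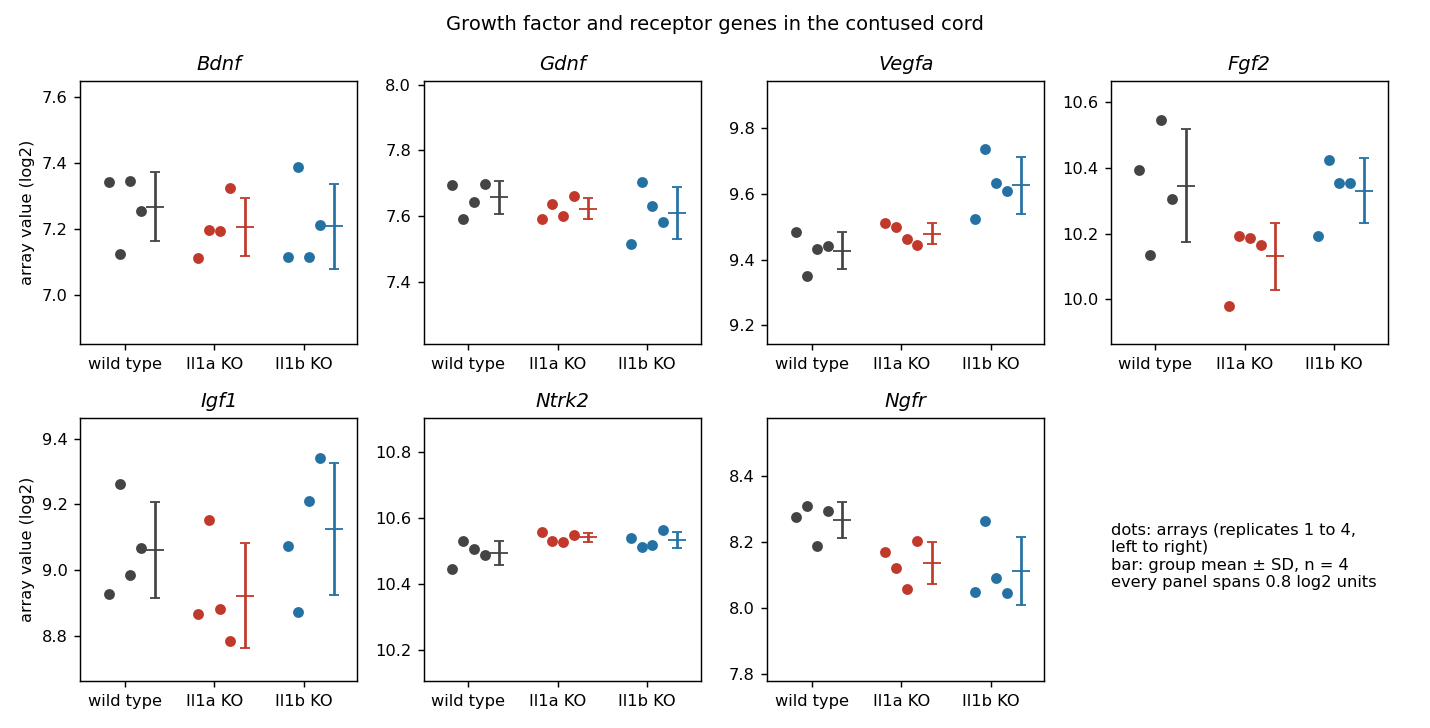
Log2 array values of the 7 measured genes in wild type, Il1a KO and Il1b KO. Each dot is an array and the bars give the group mean ± SD (n = 4), on panels of equal span. The Il1b KO arrays of Vegfa lie above all wild-type arrays, and in each of the other panels every knockout overlaps wild type.

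Among the ligands, BDNF is made by neurons in an activity-dependent way and by glia after injury. The wild-type arrays had Bdnf at 7.34, 7.12, 7.35 and 7.26 on the log2 scale, the Il1a KO arrays at 7.11, 7.20, 7.20 and 7.33, and the Il1b KO arrays at 7.12, 7.39, 7.11 and 7.21. The 3 groups covered the same range. By signal the gene stood at percentile 33.8 of all genes. Group means were 7.27 ± 0.105 (SD, n = 4) in wild type, 7.21 ± 0.0878 (SD, n = 4) in the Il1a KO and 7.21 ± 0.129 (SD, n = 4) in the Il1b KO. Both knockouts thus had a log2 difference of -0.06 from wild type (SE 0.0706). The 95% interval of the fold was 0.863 to 1.07 in each, and the limma adjusted p was 0.919 and 0.766. Without Il1a KO replicate 1 the difference of the Il1a KO was -0.03 from wild type (limma adjusted p = 0.998) and 0.03 from the Il1b KO (limma adjusted p = 0.955). The gene lies on chromosome 2 at 109674700 to 109727043 (GRCm38.p6), on the chromosome of the deleted genes, 19.6 megabases from Il1a with 234 tested genes between them.

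Gdnf encodes a survival factor for motor neurons and is induced in glia. Its wild-type arrays were at 7.69, 7.59, 7.64 and 7.70, the Il1a KO arrays at 7.59, 7.64, 7.60 and 7.66, and the Il1b KO arrays at 7.52, 7.71, 7.63 and 7.58. The knockout arrays lay among those of wild type apart from Il1b KO replicates 1 and 4 below and Il1b KO replicate 2 just above them. The log2 difference was -0.03 in the Il1a KO (SE 0.0451, limma adjusted p = 0.933) and -0.05 in the Il1b KO (SE 0.0451, limma adjusted p = 0.696). The 95% interval of the fold was 0.913 to 1.04 in the Il1a KO and 0.904 to 1.03 in the Il1b KO.

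Vegfa encodes the main growth and permeability factor of endothelium. Wild-type arrays had Vegfa at 9.48, 9.35, 9.43 and 9.44, Il1a KO arrays at 9.51, 9.50, 9.46 and 9.44, and Il1b KO arrays at 9.52, 9.74, 9.63 and 9.61. The lowest Il1b KO array was above the highest array of wild type and of the Il1a KO, whereas Il1a KO and wild type overlapped. In the Il1b KO it was the only 1 of the 7 genes whose arrays did not overlap those of wild type, which held for 7.00% of all genes, 5.06% higher and 1.94% lower. In the Il1a KO 0 of 7 genes were free of overlap with wild type, against 5.06%, 2.87% higher and 2.19% lower. The mean was 9.43 ± 0.0558 (SD, n = 4) in wild type, 9.48 ± 0.0317 (SD, n = 4) in the Il1a KO and 9.63 ± 0.0872 (SD, n = 4) in the Il1b KO. The log2 difference of the Il1b KO from wild type was 0.20 (SE 0.0475, 95% interval 0.10 to 0.30), or 1.15-fold, with an unadjusted p of 0.00111 and a limma adjusted p of 0.0871. The gene ranked 253 of 19938 by p in that comparison. The Il1a KO differed from wild type by 0.05 (SE 0.0475, limma adjusted p = 0.879) and from the Il1b KO by -0.15 (SE 0.0475, 95% interval -0.25 to -0.04, limma adjusted p = 0.371). The arrays of the knockouts did not overlap, as in 7.24% of all genes, 2.55% higher and 4.69% lower in the Il1a KO, and Vegfa was the only 1 of the 7. With 1 array left out, the difference of the Il1b KO from wild type lay between 0.16 and 0.23 and the adjusted p between 0.0578 and 0.219. It passed when genes of low signal were left out (adjusted p = 0.0468), with an intensity trend and robust variances (0.0359) and with array weights (log2 difference 0.17, adjusted p = 0.0417). Under these settings 242, 309 and 1145 of all genes passed in the Il1b KO, against 162 in the main fit. Under the other settings Vegfa did not pass, and its limma adjusted p reached 0.264.

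FGF-2 is a mitogen of astrocytes and neural precursors that is stored in the matrix. Fgf2 stood at 10.39, 10.14, 10.55 and 10.31 in the wild-type arrays, at 9.98, 10.19, 10.19 and 10.17 in the Il1a KO arrays and at 10.19, 10.43, 10.35 and 10.35 in the Il1b KO arrays. The Il1a KO arrays were within or below the lower part of the wild-type range, where wild type replicate 2 overlapped them, and Il1a KO replicate 1 was the lowest of all. The mean was 10.35 ± 0.172 (SD, n = 4) in wild type, 10.13 ± 0.102 (SD, n = 4) in the Il1a KO and 10.33 ± 0.0982 (SD, n = 4) in the Il1b KO. The log2 difference of the Il1a KO from wild type was -0.21 (SE 0.0814, 95% interval -0.39 to -0.04), an unadjusted p of 0.0215 and a limma adjusted p of 0.470. Without Il1a KO replicate 1, which differed in the sex-linked genes, it was -0.16 (unadjusted p = 0.0749, limma adjusted p = 0.962). The Il1b KO differed from wild type by -0.01 (SE 0.0814, limma adjusted p = 0.965), and the Il1a KO from the Il1b KO by -0.20 (SE 0.0814, limma adjusted p = 0.566). The last was -0.15 without Il1a KO replicate 1 (unadjusted p = 0.0994, limma adjusted p = 0.770).

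IGF-1 is made by microglia and macrophages and supports neurons and myelin-forming cells. Igf1 values were 8.93, 9.26, 8.99 and 9.07 in wild type, 8.87, 9.15, 8.88 and 8.79 in the Il1a KO and 9.08, 8.87, 9.21 and 9.34 in the Il1b KO. All groups overlapped. Replicate 2 was the highest array of wild type and of the Il1a KO and the lowest of the Il1b KO. The spread within groups (SD 0.170) was larger than that of 94.8% of all genes. The log2 difference was -0.14 in the Il1a KO (SE 0.105, limma adjusted p = 0.831), 0.06 in the Il1b KO (SE 0.105, limma adjusted p = 0.842) and -0.20 between the knockouts (SE 0.105, 95% interval -0.43 to 0.02, limma adjusted p = 0.700).

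Of the receptors, Ntrk2 encodes TrkB, the receptor of BDNF, whose truncated form without the kinase is abundant in astrocytes. Probe positions were not used here, so full-length and truncated forms were not separated. The wild-type arrays had Ntrk2 at 10.45, 10.53, 10.51 and 10.49, the Il1a KO arrays at 10.56, 10.53, 10.53 and 10.55 and the Il1b KO arrays at 10.54, 10.51, 10.52 and 10.56. All groups overlapped. It varied least of the 7, with an SD within groups of 0.0263, larger than that of only 0.9% of all genes. The log2 difference was 0.05 in the Il1a KO and 0.04 in the Il1b KO (SE 0.0338 for each, limma adjusted p = 0.810 and 0.658). The fold intervals of 0.983 to 1.09 and 0.978 to 1.08 were the narrowest of the 7 genes.

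Ngfr encodes p75, present on Schwann cells, perivascular cells and some neurons, and increased on several cells after nerve injury. The wild-type arrays of Ngfr read 8.28, 8.31, 8.19 and 8.29, those of the Il1a KO 8.17, 8.12, 8.06 and 8.20, and those of the Il1b KO 8.05, 8.26, 8.09 and 8.05. In each knockout 3 of 4 arrays lay below every wild-type array, while Il1a KO replicate 4 and Il1b KO replicate 2 were within the wild-type range. The mean was 8.27 ± 0.0555 (SD, n = 4) in wild type, 8.14 ± 0.0637 (SD, n = 4) in the Il1a KO and 8.11 ± 0.103 (SD, n = 4) in the Il1b KO. The log2 difference was -0.13 in the Il1a KO (SE 0.0544, 95% interval -0.25 to -0.01), with an unadjusted p of 0.0329 and a limma adjusted p of 0.534. In the Il1b KO it was -0.16 (SE 0.0544, 95% interval -0.27 to -0.04), with an unadjusted p of 0.0135 and a limma adjusted p of 0.252. The wild-type arrays are shared by both comparisons, so their like direction is no independent support. Between the knockouts the difference was 0.03 (limma adjusted p = 0.949). With 1 array left out the Il1b KO value lay between -0.21 and -0.13. Its limma adjusted p then lay between 0.0876, without Il1b KO replicate 2, and 0.489. It passed with array weights (-0.20, adjusted p = 0.0312), a setting under which 1145 of all genes passed against 162 in the main fit.

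**Figure D2:**
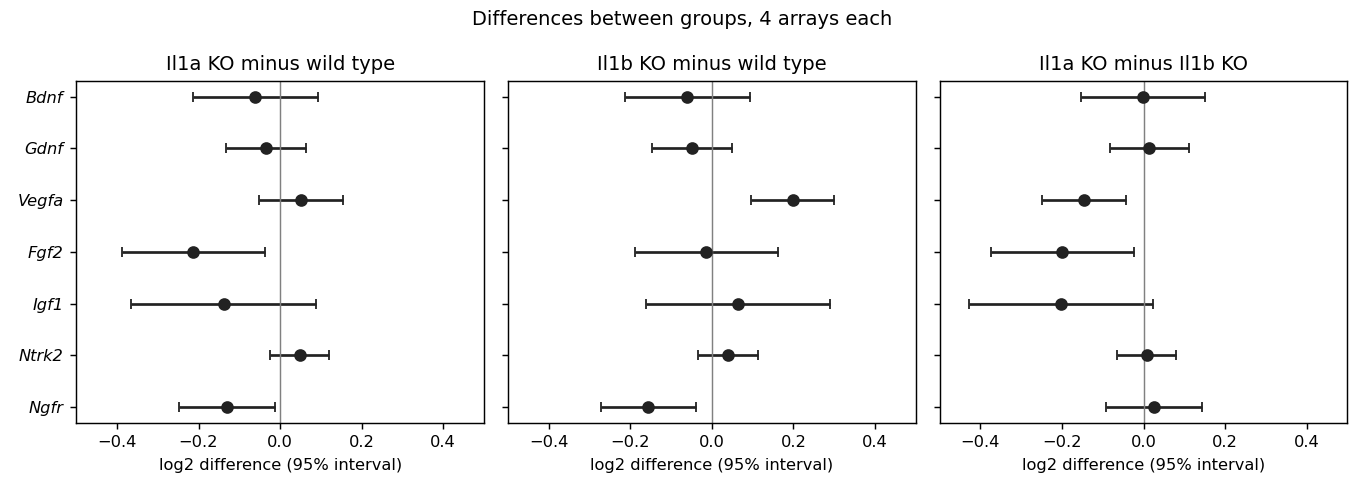
Log2 differences of the 7 genes with 95% intervals from limma, for each knockout against wild type and for the Il1a KO against the Il1b KO (4 arrays a group). Intervals that leave out 0 are those of Fgf2 and Ngfr in the Il1a KO, Vegfa and Ngfr in the Il1b KO, and Vegfa and Fgf2 between the knockouts, all with an adjusted p above 0.05.

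The sequences just before the start sites of Vegfa, Ngfr and Fgf2 are shown because these genes had the intervals that left out 0. They are the 250 bases before the outermost RefSeq start in GRCm38.p6, on the strand of the gene, with matches to either of 2 motifs in capitals. The first motif was a loose form of the site of NF-kB, the transcription factor activated by the interleukin-1 receptor. It was written as GGG and CC with any 5 bases between them. The second was ACGTG, a form of the core of the element bound by hypoxia-inducible factors. The form GCGTG of that core was not searched. Both strands were searched.
Vegfa, chr17:46032378-46032627, minus strand: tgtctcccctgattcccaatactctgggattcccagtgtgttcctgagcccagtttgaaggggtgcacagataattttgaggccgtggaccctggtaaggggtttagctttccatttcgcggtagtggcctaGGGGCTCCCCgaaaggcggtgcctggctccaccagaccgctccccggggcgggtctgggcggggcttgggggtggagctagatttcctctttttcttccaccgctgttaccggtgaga
Ngfr, chr11:95587699-95587948, minus strand: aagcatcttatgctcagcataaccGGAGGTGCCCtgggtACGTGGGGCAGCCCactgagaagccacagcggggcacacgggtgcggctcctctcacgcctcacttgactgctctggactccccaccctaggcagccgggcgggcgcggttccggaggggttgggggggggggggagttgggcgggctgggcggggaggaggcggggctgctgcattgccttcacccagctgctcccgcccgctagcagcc
Fgf2, chr3:37348403-37348652, plus strand: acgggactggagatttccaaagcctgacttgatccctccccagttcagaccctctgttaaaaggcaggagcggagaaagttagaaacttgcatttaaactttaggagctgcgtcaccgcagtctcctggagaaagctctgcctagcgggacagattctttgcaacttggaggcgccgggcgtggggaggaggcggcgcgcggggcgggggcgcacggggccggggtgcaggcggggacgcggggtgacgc
The Vegfa window holds a match to the NF-kB form at bases -118 to -109 from the start, which reads as a match on both strands. The window of the other Vegfa start holds no such match and 1 ACGTG. The Ngfr window holds matches at -226 to -217 and at -207 to -198, the second of which shares a base with an ACGTG at -211 to -207. The Fgf2 window holds neither motif as searched, though it holds the form GCGTG. Over all 32851 promoter windows of this length, 45.8% had a match to the NF-kB form and 16.6% to ACGTG. Of the 15 windows of the 7 genes, 5 held the first and 5 the second. The matches describe letters only, and no binding was measured.

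The members also varied between arrays of the same genotype. Il1b KO replicate 2 was the highest of its group for 5 of the 7 genes (Bdnf, Gdnf, Vegfa, Fgf2 and Ngfr) and the lowest for Igf1 and Ntrk2. Wild type replicate 2 was the lowest of its group for 4 (Bdnf, Gdnf, Vegfa and Fgf2) and the highest for Igf1, Ntrk2 and Ngfr. Over the 12 arrays the most alike pair was Bdnf and Gdnf, with Pearson's r of 0.76 (permutation p = 0.00402, adjusted over 21 pairs 0.0844) and Spearman's rho of 0.74 (permutation p = 0.00753, adjusted 0.106). Without the 2 arrays farthest from the Bdnf median r was 0.73, and with group means removed it was 0.74. Gdnf and Ntrk2 gave the lowest r of -0.66 (permutation p = 0.0177, adjusted 0.111), with a rho of -0.72 (permutation p = 0.0101, adjusted 0.106) and an r of -0.78 without 2 arrays. No pair of the 21 passed after adjustment, and 4 had an unadjusted p below 0.05.

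The genes most like each member over the 12 arrays are given as a description, since they are the highest of all genes tested. The arrays share any difference in RNA quality, and r over all arrays also takes in differences between groups. Vegfa was nearest to Crat, an enzyme of acyl-carnitine metabolism (r = 0.95), Elk1, a transcription factor downstream of growth factor receptors (r = 0.92), and Rbm46 (r = 0.90, at percentile 22.5 by signal). With group means removed these r were 0.83, 0.78 and 0.69. For the genes nearest to the other members they then lay between 0.76 and 0.97. Fgf2 was nearest to Spred3, an inhibitor of growth factor signalling (r = 0.95), Stk32a (r = 0.93) and Eprs, a transfer RNA synthetase (r = 0.90). Igf1 was nearest to Tll1, a metalloproteinase (r = 0.94), Serping1, the inhibitor of complement C1 (r = 0.91), and Nbl1, a secreted antagonist of bone morphogenetic proteins (r = 0.89). Ntrk2 was nearest to Cacul1 (r = 0.93), Fstl5 (r = 0.92) and Edil3 (r = 0.91). Ngfr was nearest to the replication factor Cdc6 (r = 0.92), Fubp3 (r = 0.89) and 5330416C01Rik (r = 0.89, at percentile 11.4 by signal). Bdnf was nearest to the olfactory receptor genes Olfr1006 (r = 0.91) and Olfr699 (r = 0.91) and to Prpmp5 (r = 0.90). By signal these stood at percentiles 9.6, 11.4 and 1.7 of all genes, so they are dim. Gdnf was nearest to Pabpc6 (r = 0.93), Ldhal6b (r = 0.91) and Tnfaip2 (r = 0.88), at percentiles 18.0, 39.4 and 42.9. Bdnf itself was at percentile 33.8 and Gdnf at 40.8. Whether background signal has a part in their values and in their likeness to each other was not tested.

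Whole growth factor families were read from lists of 98 measured ligands, receptors, binding proteins and downstream genes. The 7 members are among the 98 and in the counts that follow. In each of the 3 comparisons 0 of 98 passed limma's test. Of all genes 0.171% passed in the Il1a KO, 0.813% in the Il1b KO and 0.652% between the knockouts. At an unadjusted p below 0.05 there were 8 higher and 10 lower in the Il1a KO, where 4.54% and 3.77% of all genes were, and 14 higher and 4 lower in the Il1b KO, where 8.42% and 4.58% were. Between the knockouts 1 was higher and 16 were lower in the Il1a KO, against 2.99% and 4.80%. Arrays did not overlap for 3 higher and 4 lower genes in the Il1a KO, 7 and 1 in the Il1b KO, and 1 and 11 between the knockouts. Over all genes the shares higher and lower were 2.87% and 2.19%, 5.06% and 1.94%, and 2.55% and 4.69%. The median log2 difference of the 98 genes was -0.01 in the Il1a KO, 0.03 in the Il1b KO and -0.03 between them, and that of all genes was between -0.0042 and 0.0040.

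In the neurotrophin families 2 ligands were measured, Bdnf and Ntf5, and neither passed. Ntf5, which encodes the other TrkB ligand, had log2 differences of 0.07 in the Il1a KO and -0.04 in the Il1b KO. Of 5 measured receptors, Sort1, encoding the sortilin that pairs with p75 for precursor neurotrophins, was at 0.11 in the Il1a KO (limma adjusted p = 0.481) and 0.13 in the Il1b KO (limma adjusted p = 0.226), opposite in sign to Ngfr. Ntrk3, the receptor of NT-3, was at 0.07 in the Il1b KO (limma adjusted p = 0.446). The 4 GDNF family ligands had log2 differences between -0.12 and 0.03 in either knockout. Among their 6 receptors Gfra1, the co-receptor of GDNF, was at -0.14 in the Il1a KO (unadjusted p = 0.00557, limma adjusted p = 0.328), with no overlap between its 4 arrays and those of wild type, and at -0.06 in the Il1b KO.

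In the VEGF family Flt1, the receptor that binds VEGF-A most tightly, had values of 9.60, 9.62, 9.72 and 9.65 in wild type, 9.76, 9.70, 9.70 and 9.75 in the Il1a KO and 9.80, 9.80, 9.80 and 9.83 in the Il1b KO. All Il1b KO arrays were above all others, as for Vegfa. Its log2 difference in the Il1b KO was 0.16 (SE 0.0367, unadjusted p = 0.00067, limma adjusted p = 0.0645). With 1 array left out the difference lay between 0.15 and 0.19 and the limma adjusted p between 0.0275 and 0.178. Of these fits only that without wild type replicate 3 gave a call (0.19, adjusted p = 0.0275). Flt1 also passed under the settings that gave a call for Vegfa. In the Il1a KO Flt1 was at 0.08 (limma adjusted p = 0.579). Kdr, the main signalling receptor, was at 0.01 in the Il1b KO (limma adjusted p = 0.962) and -0.11 in the Il1a KO (limma adjusted p = 0.724). Nrp2, a co-receptor, was at 0.07 and -0.08, and the Il1a KO lay below the Il1b KO by -0.15 (limma adjusted p = 0.386). Of the other ligands Vegfb was at 0.07 and Vegfd at -0.06 in the Il1b KO, and Vegfc at 0.10 in the Il1a KO (limma adjusted p = 0.592). The 4 other endothelial markers had list means of 9.49 to 9.65 in wild type and 9.51 to 9.60 in the Il1b KO, so they overlapped.

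Vegfa is a known target of hypoxia-inducible factors, and 15 hypoxia-induced genes were set beside it. Their median log2 difference in the Il1b KO was -0.0064, with 7 of 15 at a positive value, against 52.0% of all genes. Egln3, a prolyl hydroxylase, was at 0.18 (limma adjusted p = 0.241), P4ha1 at 0.10 (limma adjusted p = 0.406) and Ankrd37 at -0.11 (limma adjusted p = 0.282). In the Il1a KO the glycolytic gene Ldha was at -0.13 (limma adjusted p = 0.361), Bnip3 at 0.10 (limma adjusted p = 0.461) and the median at -0.04.

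In the FGF family Fgfrl1, a receptor without a kinase domain, was at 0.21 in the Il1b KO (unadjusted p = 0.00125, limma adjusted p = 0.092), and its arrays did not overlap those of wild type. It passed with an intensity trend and robust variances (adjusted p = 0.0335), a setting under which 309 of all genes passed against 162 in the main fit. Fgfr4 was at -0.22 in the Il1a KO (limma adjusted p = 0.370) and -0.17 in the Il1b KO (limma adjusted p = 0.334), and Fgfr2 at 0.14 in the Il1b KO (limma adjusted p = 0.340). Of 10 ligands Fgf9, a glial mitogen, was at 0.16 in the Il1a KO (limma adjusted p = 0.452). Fgf21 was at -0.23 (limma adjusted p = 0.265) and Fgf7 at 0.17 (limma adjusted p = 0.310) in the Il1b KO. The list of feedback genes of receptor tyrosine kinase signalling also holds induced genes that are not feedback regulators, such as Etv1, Egr1 and Arc. Of its 15 genes 13 had positive values in the Il1b KO, where 52.0% of all genes were positive, with a median of 0.08. Among them were Etv1 at 0.18 (limma adjusted p = 0.203), Spry4 at 0.18 (limma adjusted p = 0.266) and the activity-regulated Arc at 0.16 (limma adjusted p = 0.254). In the Il1a KO 6 of 15 were positive, against 50.2% of all genes. Etv1 was at 0.24 there (limma adjusted p = 0.180) and the inhibitor Spry1 at -0.16 (limma adjusted p = 0.402). Between the knockouts 12 of 15 were lower in the Il1a KO, where 47.3% of all genes were higher, with Egr1 at -0.22 (limma adjusted p = 0.315).

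In the IGF family Igf2, the fetal growth factor that the adult meninges and vessels also make, was at -0.32 in the Il1a KO (SE 0.114, limma adjusted p = 0.427), 0.07 in the Il1b KO (limma adjusted p = 0.831) and -0.39 between them (limma adjusted p = 0.270). Of 8 binding protein genes 1 had a positive value in the Il1a KO and 3 in the Il1b KO, against 50.2% and 52.0% of all genes. Igfbp3 was at -0.26 in the Il1a KO (limma adjusted p = 0.334), with no overlap of arrays, and at -0.0063 in the Il1b KO (limma adjusted p = 0.983). Igfbp5 was at 0.16 in the Il1b KO (limma adjusted p = 0.572) and -0.28 between the knockouts (limma adjusted p = 0.527). Both passed only without wild type replicate 2 (0.30 with adjusted p = 0.0378, and -0.28 with adjusted p = 0.0475). With other single arrays left out the limma adjusted p reached 0.797 and 0.789. Of 13 other trophic factor genes, pleiotrophin (Ptn), which promotes neurite growth and precursor differentiation, was at 0.30 in the Il1a KO (SE 0.0777, limma adjusted p = 0.243) and 0.21 in the Il1b KO (SE 0.0777, limma adjusted p = 0.268), without overlap of arrays in either. Both comparisons share the wild-type arrays, so the like direction of Ptn is no independent support. With array weights Ptn passed in both (adjusted p = 0.0273 and 0.0406). Under that setting Etv1 also passed in the Il1a KO (0.049), and Sort1 (0.0448), Fgf7 (0.0361), Arc (0.0498) and Ankrd37 (0.0339) passed in the Il1b KO, as did 1145 of all genes. Hgf, a factor for endothelium and motor neurons, was at -0.19 (limma adjusted p = 0.423) and the neuropeptide precursor gene Vgf at -0.17 (limma adjusted p = 0.465) in the Il1a KO. Midkine (Mdk) was at 0.13 in the Il1b KO (limma adjusted p = 0.321).

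**Figure D3:**
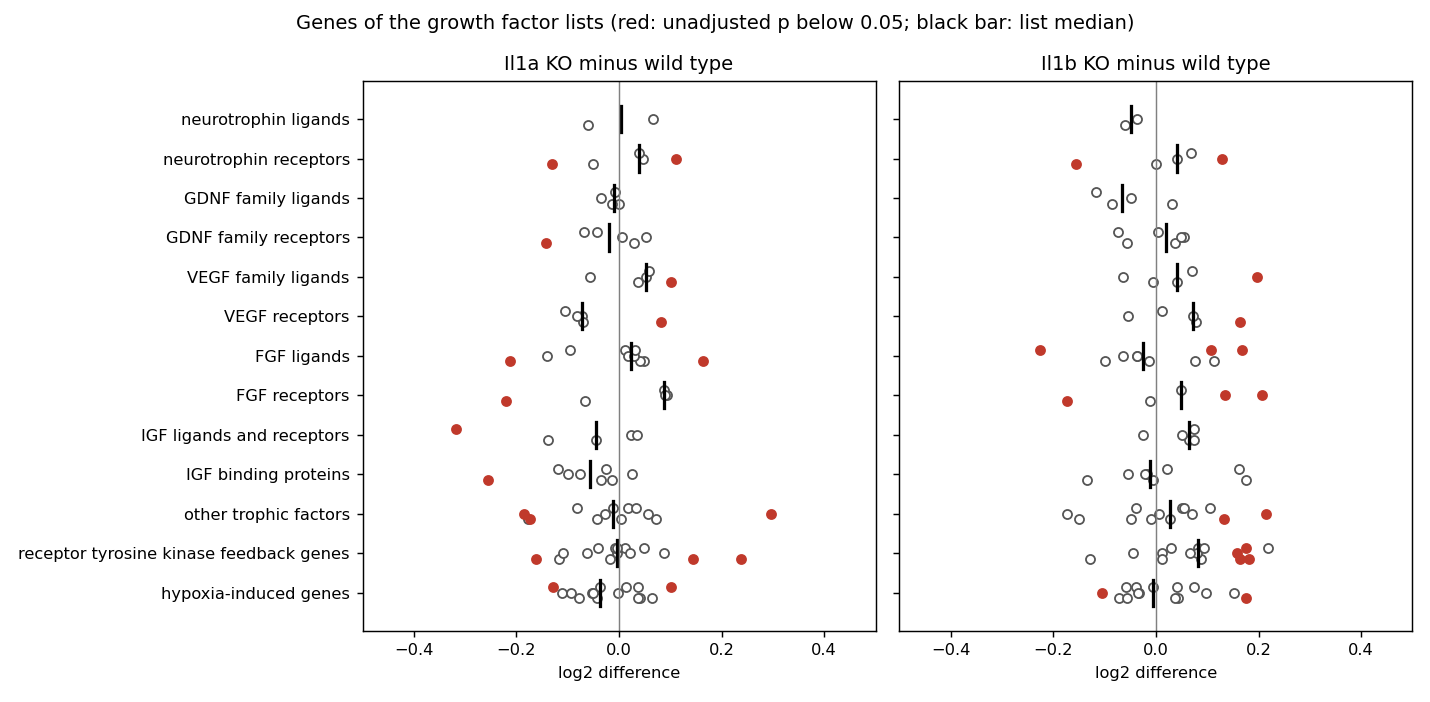
Log2 differences of the 98 listed genes from wild type in the Il1a KO and the Il1b KO, by family or role. Each circle is a gene, filled in red at an unadjusted p below 0.05, and black bars are list medians. In the Il1b KO the list of receptor tyrosine kinase feedback genes has 13 of 15 circles above 0, against 52.0% of all genes. That list also holds induced genes such as Etv1, Egr1 and Arc. No listed gene passed after adjustment, against 0.171% of all genes in the Il1a KO and 0.813% in the Il1b KO.

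Markers of other cells are given as array means of each list, since in a bulk sample fewer cells of a type and less RNA per cell cannot be told apart. No marker of any list passed limma's test in the Il1a KO, where 0.171% of all genes did. In the Il1b KO 1 of 8 neutrophil markers and 1 of 6 pericyte and fibroblast markers passed, against 0.813% of all genes. Between the knockouts 1 of 6 microglia markers passed, against 0.652%. At an unadjusted p below 0.05, 4 of 8 neutrophil markers and 4 of 5 monocyte and macrophage markers were lower in the Il1a KO. In the Il1b KO 3 of 8 and 1 of 5 were. Oligodendrocyte precursor markers were higher for 4 of 6 in the Il1a KO and 6 of 6 in the Il1b KO, and mature oligodendrocyte markers for 3 of 5 in each. Skeletal muscle markers were lower for 4 of 6 and 3 of 6. Of all genes 3.77% were lower and 4.54% higher in the Il1a KO, and 4.58% and 8.42% in the Il1b KO. The mean of 8 neutrophil markers was 7.78 to 8.13 in wild type, 7.47 to 7.71 in the Il1a KO and 7.30 to 7.99 in the Il1b KO. The mean of the 5 measured monocyte and macrophage markers was 9.23 to 9.67, 8.88 to 9.30 and 9.06 to 9.38. Mature oligodendrocyte markers were at 11.55 to 11.65 in wild type, 11.73 to 11.87 in the Il1a KO and 11.63 to 11.80 in the Il1b KO, and precursor markers at 9.58 to 9.69, 9.73 to 9.84 and 9.76 to 9.87. Astrocyte markers covered 11.10 to 11.18, 11.09 to 11.16 and 11.14 to 11.18, and homeostatic microglia markers 7.70 to 7.92, 7.84 to 7.98 and 7.71 to 7.80. Markers of pericytes and fibroblasts were at 9.58 to 9.85, 9.61 to 9.71 and 9.70 to 9.82. Skeletal muscle markers, which carried-over tissue could raise, were at 6.97 to 7.43, 6.98 to 7.01 and 6.89 to 7.07. The dimmest of the 6 stood at percentile 15.7 of all genes by signal, and carry-over was not tested. The 3 measured markers of Schwann cells and dorsal root other than Ngfr overlapped, at 9.20 to 9.57, 9.29 to 9.46 and 9.26 to 9.48. Their part in the values of the growth factor genes was not tested.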

How the data were processed

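Total RNA of 12 injured cords was measured on whole-transcript arrays, 4 each of wild type, Il1a KO and Il1b KO. The deposited values are log2 signals, 1 per probe set and array, and were used as they stand. The tools listed, per the submitters' processing notes, are Partek, limma, RMA and GCOS 1.4, without their roles. That RMA made these values is inferred from that list and from their range of 2.97 to 14.4. It equalises the arrays and compresses folds of dim genes. No annotation build of the authors' files is given in the sources used here.

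A single gene symbol was listed for 21789 of 35557 probe sets. The brightest stood for each of 19938 genes, of which 19856 matched RefSeq (GRCm38.p6), the source of positions and promoter sequences. limma 3.58.1 (R 4.3.3) fitted 1 mean per group. The 3 contrasts were tested two-sided with Benjamini-Hochberg adjustment over all genes at 0.05, and the fit was tested on simulated data. Precision is limited by the number of arrays. The labels call them biological replicates and name no animals, so p-values describe spread among these samples, which may be technical in part. Correlations used 100000 permutations.

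The members, lists and tests were chosen with earlier results of these data known. Named were the members, Il1a and Il1b, the 3 genes with the smallest p of each list and contrast, and the 3 most correlated with each member. Alternatives were repeated quantile scaling, median centring, a filter below the 30th percentile, mean probe sets, trend and robust variances, array weights, the 2 groups alone, a replicate block and leaving out each array. Markers that were also list genes were left out of the marker lists.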

Additional observations from a re-analysis of the deposited data

Results flagged for a closer look

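Among 21 groups of 4 arrays (7 genes in 3 groups), 1 held an array far from the others by Dixon's criterion, which chance gives in about 1 of 20 groups. It was Fgf2 in Il1a KO replicate 1, at 9.98 against 10.17 for the next array, a gap of 0.87 of the range of the group. This array also differed in the sex-linked genes Xist and Eif2s3y. The log2 difference of Fgf2 in the Il1a KO was -0.21 with it and -0.16 without it.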

How the results depend on the processing

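The numbers of genes past the threshold were 34 in the Il1a KO, 162 in the Il1b KO and 130 between the knockouts. They were 74 and 309 in the knockouts with an intensity trend and robust variances, 306, 1145 and 244 with array weights, and 15 and 85 in the knockouts with the arrays of only the 2 groups compared. With 1 array left out they ranged from 18 to 49, from 106 to 177 and from 88 to 146. The counts that moved most were 18 in the Il1a KO and 106 in the Il1b KO without wild type replicate 4, 19 in the Il1a KO without Il1a KO replicate 3 or 4, and 107 in the Il1b KO without Il1b KO replicate 1. Of the 7 members, 1 passed in the Il1b KO without genes below the 30th percentile (Vegfa), 1 with trend and robust variances (Vegfa) and 2 with array weights (Vegfa and Ngfr). None passed with any array left out, nor in the other comparisons under any alternative run. Between the knockouts Bdnf turned to 0.0139 with median centring and 0.0314 with array weights, and Ntrk2 to -0.0013 with array weights. Ntf5 in the Il1b KO (0.0195) and Ntrk3 between the knockouts (0.0015) turned with quantile normalization, and Pspn in the Il1a KO (0.0102) and Artn between the knockouts (0.0105) with array weights. With 1 array left out, Bdnf ranged from -0.0399 to 0.0593, Gdnf from -0.0161 to 0.0466 and Artn from -0.0768 to 0.0405 between the knockouts. Fgf2 ranged from -0.0836 to 0.0536, Igf1 from -0.0083 to 0.1474 and Ntf5 from -0.0917 to 0.0557 in the Il1b KO, and Pspn from -0.0721 to 0.0338 and Nrtn from -0.1215 to 0.1011 in the Il1a KO. The causes were not tested. Scaling moved the split of calls in the Il1b KO from 84 higher and 78 lower to 69 and 98 (quantile) or 64 and 85 (median), and between the knockouts from 69 and 61 to 77 and 55 or 76 and 51. Same-numbered arrays share only a number: 2 of 12 such pairs correlated above 0.1 in their deviations, and 3 of 12 arrays were most alike to an array of their own number. With the replicate number as a block the counts were 26, 120 and 105, and 0 members passed.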
